A study of Mus musculus with 4 samples.

Results

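The genes described are the mouse potassium channel genes whose symbols start with *Kcn*, apart from *Kcnj13*, counted in 4 brain sections of *Nf1*+/- mice. Of 98 such symbols among the 32285 genes in the count tables, 75 had at least 100 unique molecular identifiers (UMIs) over all spots used, and these 75 are the members. They comprised 72 protein-coding genes and 3 non-coding transcripts (*Kcnmb4os2*, *Kcnq1ot1* and *Kcnd3os*). The members nearest above the limit were *Kcnj6* with 100 UMIs, *Kcne4* with 114 and *Kcnmb1* with 128, and the genes nearest below it were *Kcnj5* and *Kcnk7* with 53 UMIs each and *Kcnh8* with 48. Of the 23 symbols under the limit, 6 had no UMI in any section, which allows a level of up to 0.0295 CPM (UMIs scaled to a total of 1000000).

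Potassium channels let potassium ions leave or enter the cell along their gradient, and so set the resting potential, end action potentials and space out firing. Voltage-gated pore subunits of the Kv families assemble as tetramers with beta or KChIP partners, inward rectifiers carry resting and G-protein-gated currents, two-pore-domain channels carry leak currents, and calcium- or sodium-activated channels follow firing. Neurons of different regions carry different sets of these subunits, while astrocytes take up potassium through inward rectifiers.

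Fresh frozen brains were cut into 10-µm sections and profiled on Visium slides, whose barcoded spots each capture mRNA from the several cells lying above them. The 4 sections, numbered 1 to 4 only as names, share 1 genotype, heterozygous loss of *Nf1*, and the labels name no treatment. The labels give no age, sex or strain and do not say whether each section came from a separate mouse, so n counts sections and the p-values may measure technical spread between sections as well. No wild-type section was used here, so nothing below compares genotypes. With spots under 500 UMIs left out, 1431 to 2358 spots and 19261103 to 37001945 UMIs per section were used, at a median of 8862.5 to 15296.5 UMIs per spot.

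Spots were put into 5 classes by marker genes that are not members. A spot entered a class when its UMIs of the marker, per 10000 of its UMIs, reached the 90th percentile over all spots. It also needed at least 3 UMIs of the marker, and spots in more than 1 class were left out. Before that last step the rules gave 69 *Slc17a6*-high spots, against 710 to 762 spots in the other classes. The *Slc17a6*-high spots used had medians of 17535 and 21334.5 UMIs per spot in sections 1 and 4. The classes were *Slc17a7*-high (cortical, 101, 319, 174 and 110 spots in sections 1 to 4), *Ppp1r1b*-high (striatal, 132, 250, 180 and 155 spots), *Slc17a6*-high (subcortical, 20 and 28 spots in sections 1 and 4), *Mbp*-high (white matter, 135, 103, 189 and 129 spots) and astrocyte-marker-high (*Gja1*, *Aqp4*, *Mlc1*, *Ntsr2* and *Cldn10*; 95, 129, 188 and 75 spots). Sections 2 and 3 held only 8 and 2 *Slc17a6*-high spots and gave no sum for that class. A spot is a small region and not a cell type, and in summed spots fewer cells of a type and less RNA per cell cannot be told apart.

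Each class was checked with 8 markers that did not define it. All 8 striatal check markers were at least 2-fold above the section level in *Ppp1r1b*-high spots of every section, as were all 8 oligodendrocyte check markers in *Mbp*-high spots, whereas 7 or 8 of 8 cortical markers and 8 of 8 astrocyte markers were above the section level in their classes at median ratios of 1.59 to 1.99 and 1.63 to 1.81. The *Slc17a6*-high spots went against the label subcortical in section 4, where only 4 of 8 thalamic check markers exceeded the section level (median ratio 0.929), so the class is called by its marker. The summed level of 6 pan-neuronal markers was 6004 to 6704 CPM in *Slc17a7*-high spots, 4748 to 6255 CPM in *Slc17a6*-high spots, 2840 to 3356 CPM in *Ppp1r1b*-high spots, 2745 to 3256 CPM in astrocyte-marker-high spots and 1983 to 2292 CPM in *Mbp*-high spots. The part of this neuronal gradient in the differences below was not tested. *Mbp*-high spots were also the shallowest, at a median of 3002 to 7288 UMIs per spot.

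Promoter sequences were available for 53 of the 75 members in RefSeq's table (GRCm38.p6). Those of 4 members that were each higher in *Ppp1r1b*-high spots and have a single listed start are shown as examples, and other members that meet this rule are not shown. Each run gives the 250 bases before the listed start, 5′ to 3′ on the strand of the gene. Capitals mark the GC box, GGGCGG, or its reverse complement CCGCCC. For *Kcnip2* the listed start lies inside the gene's span (chr19:45792346-45816422), so its run is not sequence before that span. The positions are chr11:111065914-111066163 (+ strand) for *Kcnj2*, chr2:107290339-107290588 (+ strand) for *Kcna4*, chr6:21215096-21215345 (+ strand) for *Kcnd2* and chr19:45816064-45816313 (- strand) for *Kcnip2*.
Kcnj2: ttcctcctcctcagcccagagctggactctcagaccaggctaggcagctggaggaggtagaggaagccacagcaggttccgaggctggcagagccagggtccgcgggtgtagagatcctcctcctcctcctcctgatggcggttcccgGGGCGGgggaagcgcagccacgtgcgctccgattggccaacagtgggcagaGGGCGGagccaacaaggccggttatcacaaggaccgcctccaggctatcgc
Kcna4: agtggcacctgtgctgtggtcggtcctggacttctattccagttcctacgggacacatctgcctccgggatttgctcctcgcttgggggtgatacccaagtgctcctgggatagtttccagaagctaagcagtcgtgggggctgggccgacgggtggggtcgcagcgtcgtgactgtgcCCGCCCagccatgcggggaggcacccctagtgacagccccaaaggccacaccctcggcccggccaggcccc
Kcnd2: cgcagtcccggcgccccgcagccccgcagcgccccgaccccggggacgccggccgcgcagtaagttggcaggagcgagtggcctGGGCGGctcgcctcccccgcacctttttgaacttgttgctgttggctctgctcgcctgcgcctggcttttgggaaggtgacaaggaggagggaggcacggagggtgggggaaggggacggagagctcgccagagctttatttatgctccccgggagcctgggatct
Kcnip2: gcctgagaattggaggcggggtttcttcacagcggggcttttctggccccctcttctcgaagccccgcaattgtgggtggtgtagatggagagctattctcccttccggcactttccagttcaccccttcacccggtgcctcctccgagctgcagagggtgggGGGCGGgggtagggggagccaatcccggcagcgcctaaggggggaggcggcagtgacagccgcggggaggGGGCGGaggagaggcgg
A gene counted as holding a motif if the 250-base window of any of its listed starts did, so genes with more starts had more chances of a match. On either strand, 60.4% of the 53 members held a GC box against 35.4% of 27025 genes, and 3.77% a TATA box (TATAAA) against 14.3%. The cyclic AMP response element (TGACGTCA) was held by 0 of the 53 members and by 1.77% of all genes, and none of the 3 motifs contains another. Median GC content was 60.1% in members and 52.4% in all genes. Among the 13 members with a promoter that were higher in *Ppp1r1b*-high spots 9 held a GC box, as did 16 of the 25 that were higher in *Slc17a7*-high spots. The 4 sequences shown all hold one, whereas the single window of *Kcna5*, also higher in *Ppp1r1b*-high spots, holds none. A match is a description of the letters and not of a bound site.

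Over whole sections the members took 0.245%, 0.298%, 0.272% and 0.292% of the UMIs of sections 1 to 4. UMIs count captured 3′ ends once each and are not scaled by gene length. The KChIP subunits, calcium sensors that traffic Kv4 channels, were counted most, with 39420 UMIs over 4 members, followed by the Kv1 beta subunits with 37505 over 3, the inward rectifiers with 32864 over 11, the Kv7 channels with 26044 over 4 and the two-pore-domain channels with 25127 over 9. *Kcnip2*, the most counted member, stood at 197.2, 256.7, 218.6 and 239.6 CPM in sections 1 to 4 (mean 228 ± 25.8, SD, n = 4). The most counted members of the pore families included *Kcnk1* at 123 ± 12.3 CPM, *Kcnd2* at 98.3 ± 6.04, *Kcnj4* at 94.1 ± 7.95, *Kcnc1* at 78.2 ± 14.0 and *Kcna2* at 76.0 ± 14.0.

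Levels differed between sections by gene. The coefficient of variation over the 4 sections had a median of 15.5% in the 75 members and 9.90% in the 14183 genes with at least 100 UMIs. *Kcne2*, an accessory subunit that is abundant in choroid plexus, stood at 10.8, 0.0541, 0.318 and 3.58 CPM, from 254, 2, 7 and 69 UMIs. Spots with choroid plexus markers numbered 176, 4, 7 and 73 in the same order, so sections 1 and 4 were high in both. *Kcnab3*, a Kv1 beta subunit, stood at 25.8, 51.1, 56.2 and 87.2 CPM, and *Kcnh7*, an ERG pore subunit, at 22.0, 35.8, 36.2 and 52.6 CPM. Section 4 was the highest and section 1 the lowest for both genes. *Kcna5* ran the other way, with 17.4, 17.5, 12.3 and 4.72 CPM, and *Kcng4* stood at 1.07 to 3.84 CPM. The steadiest members were *Kcnip4* (60.3 to 63.9 CPM), *Kcnip1* (26.9 to 29.2 CPM), *Kcnj16* (10.6 to 12.1 CPM), *Kcnk2* (56.3 to 63.9 CPM) and *Kcnj10* (63.9 to 73.1 CPM). These differences between sections have no test, since each section is a single sample.

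**Figure D1:**
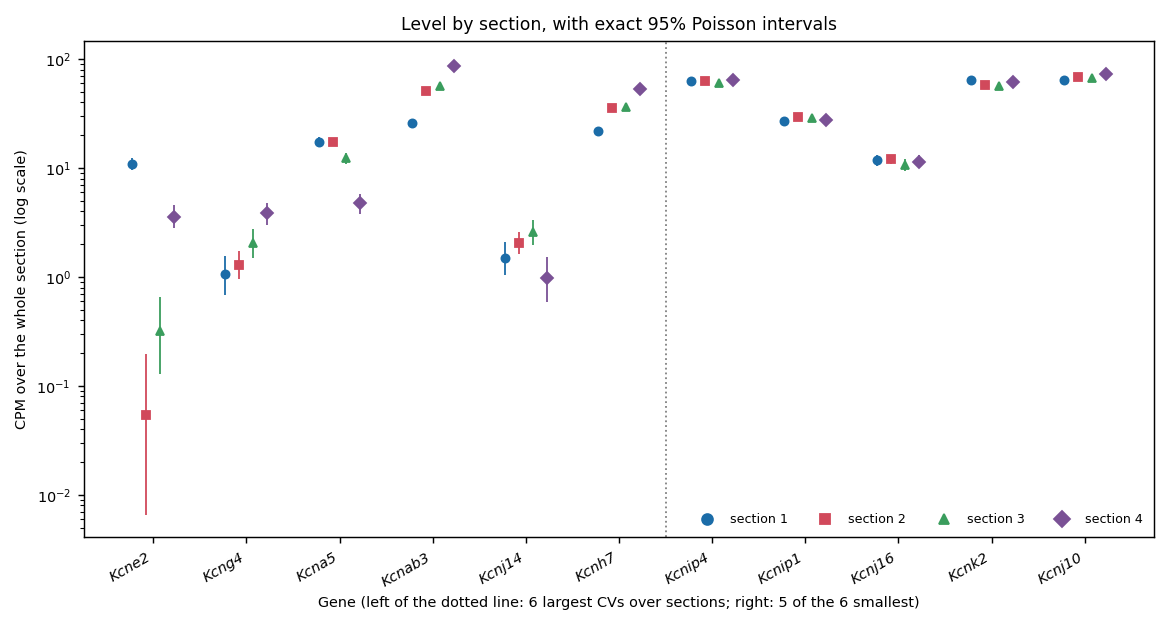
CPM (vertical log axis) of the 6 members with the largest and 5 of the 6 with the smallest coefficient of variation over sections, as 1 point per section with its exact 95% Poisson interval, which covers counting error only. *Kcne2* spans 0.0541 to 10.8 CPM, whereas *Kcnip4* stays between 60.3 and 63.9 CPM.

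For the comparison of classes, UMIs were summed per section and class into 18 sums, and each class was set against the mean of the other 4 by edgeR's quasi-likelihood test with section as a block. Of the 75 members, 66 passed the filter on low counts. The 9 that did not (*Kcnu1*, *Kcnh5*, *Kcnmb2*, *Kcng4*, *Kcnj14*, *Kcnd3os*, *Kcnmb1*, *Kcne4* and *Kcnj6*) stayed at or below 7.54 CPM in every sum and were not tested. The 75 members together reached 3004 to 3336 CPM in *Slc17a7*-high spots, 2758 to 3235 CPM in *Ppp1r1b*-high spots, 2591 and 3333 CPM in *Slc17a6*-high spots, 2084 to 2271 CPM in astrocyte-marker-high spots and 1579 to 1802 CPM in *Mbp*-high spots. Summed levels in *Mbp*-high spots were therefore below those of every other class in every section. The heat map of the named members shows that the families were not uniform within a class.

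**Figure D2:**
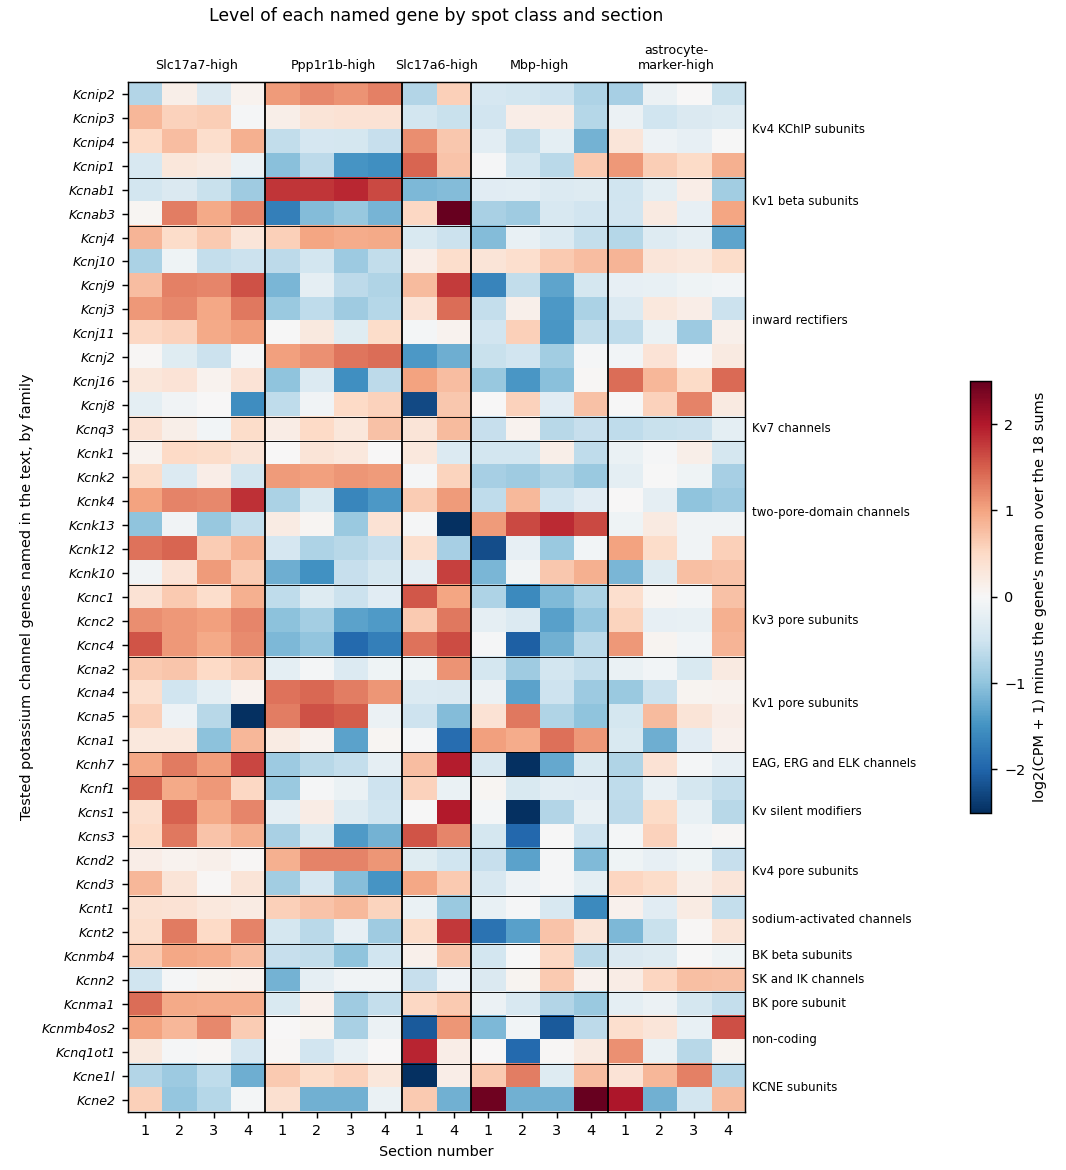
Each row is 1 of the 43 tested members named in the text, grouped by family, and each column 1 of the 18 sums of a spot class (top) in a section (bottom); colour gives log2(CPM + 1) minus the gene's mean over the 18 sums. *Kcnab1* is high in all 4 *Ppp1r1b*-high columns, and *Kcnk13* in all 4 *Mbp*-high columns.

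*Slc17a7*-high spots held higher levels of many voltage-gated pore subunits. Of the 66 members 38 were higher there and 4 lower (adjusted p under 0.05), where 17.3% of the 12290 genes tested, class markers left out, were higher and 13.3% lower. The median log2 fold change was 0.52 in members and 0.01 in all genes. Above every other sum in *Slc17a7*-high spots were 6 of the 75 members, where 3.28% of 12062 genes were. All 4 Kv3 members, channels that let neurons fire fast by closing quickly after each spike, were higher, as were 5 of 7 silent modifiers, which assemble with Kv2 subunits, and 5 of 9 two-pore-domain members. The BK pore gene *Kcnma1* and its neuronal partner *Kcnmb4* rose together, by 1.11 and 0.87 on the log2 scale.

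*Kcnc4*, a Kv3 pore subunit (chr3:107438298-107460287, mm10), stood at 85.3, 60.7, 55.0 and 65.5 CPM in *Slc17a7*-high spots of sections 1 to 4 and at 12.4, 13.7, 6.62 and 7.87 CPM in *Ppp1r1b*-high spots. It was at 27.6, 6.11, 11.7 and 17.3 CPM in *Mbp*-high spots and at 60.8, 29.7, 26.8 and 51.3 CPM in astrocyte-marker-high spots. Only the astrocyte-marker-high value of section 1 and the *Slc17a6*-high values (74.2 and 89.8 CPM) reached the range of the *Slc17a7*-high spots, and the fit gave a log2 fold change of 1.22 ± 0.13 (SE, adjusted p = 2.6e-09). *Kcnc2*, of the same family, stood at 71.8, 68.1, 65.0 and 74.9 CPM and rose by 1.23 ± 0.13 (adjusted p = 2.1e-09). *Kcnj9*, a G-protein-gated inward rectifier, stood at 65.3, 91.7, 90.1 and 116.7 CPM in *Slc17a7*-high spots and at 11.4 to 36.2 CPM in *Ppp1r1b*-high, *Mbp*-high and astrocyte-marker-high spots, a rise of 1.26 ± 0.10 (adjusted p = 1.5e-11). Its partner subunit *Kcnj3* stood at 66.7 to 84.9 CPM and rose by 1.17. Both G-protein-gated subunits were therefore high in every *Slc17a7*-high sum. They were not particular to that class. In *Slc17a6*-high spots of sections 1 and 4 *Kcnj9* stood at 66.2 and 128.9 CPM and *Kcnj3* at 42.4 and 89.8 CPM. *Kcnc2* stood there at 50.3 and 80.0 CPM. For each of these genes the section 4 value was above every *Slc17a7*-high value.

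The largest rises in *Slc17a7*-high spots were in weakly counted two-pore-domain genes. *Kcnk12*, a subunit that gives little current on its own, stood at 6.25 to 11.8 CPM, from 113 UMIs, and rose by 1.71 ± 0.31 (adjusted p = 5.3e-05). It passed the low-count filter only with its *Slc17a7*-high sums, so its call is no separate support for the rise. *Kcnk4*, a mechanically gated leak channel, stood at 14.1, 16.8, 16.3 and 25.6 CPM against 3.32, 4.74, 1.42 and 1.79 CPM in *Ppp1r1b*-high spots, and rose by 1.56 ± 0.22 (adjusted p = 1.2e-06). Every *Slc17a7*-high value of *Kcnk4* except that of section 1 was also above the *Slc17a6*-high values of 10.6 and 14.7 CPM. The non-coding *Kcnmb4os2*, at 5.62 to 8.76 CPM, rose by 1.19 ± 0.36 (adjusted p = 0.011), and this call was lost without section 1 (0.99, adjusted p = 0.096) or section 3 (0.83, adjusted p = 0.13), and against all other spots of the section its value was 0.29 (adjusted p = 0.36). The sources used here do not say whether counting used strand, so its reads and those of an overlapping gene cannot be told apart.

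The 4 members lower in *Slc17a7*-high spots were *Kcne1l*, *Kcnj10*, *Kcnab1* and *Kcnip2*. *Kcne1l*, an accessory subunit, stood at 3.01, 2.58, 3.34 and 1.87 CPM there and at 7.16 to 9.54 CPM in *Ppp1r1b*-high spots, and its log2 fold change was -1.57 ± 0.40 (adjusted p = 0.0027). Without section 4 the value was 0.0014 (adjusted p = 0.92), since the only *Slc17a6*-high sum then left held no UMI of the gene. Without the *Slc17a6*-high class it was -1.87. *Kcnj10*, the potassium-buffering inward rectifier of glia, stood at 42.7, 69.8, 49.6 and 51.2 CPM and had a log2 fold change of -0.71 ± 0.12 (adjusted p = 1.1e-05). Leaving out the *Slc17a6*-high class changed the count of lower members from 4 to 9, and taking all other spots of the section as the background gave 13. No share over all genes was taken in either setting.

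In *Ppp1r1b*-high spots 20 of the 66 members were higher, where 18.7% of all genes were, and 24 lower, where 19.5% were, with a median log2 fold change of -0.24 in members and -0.01 in all genes. The rises included *Kcnd2*, *Kcna4*, *Kcnip2*, *Kcnab1*, *Kcnk2* and *Kcnj2*. The families of Kv4 channels were split, with 1 pore subunit higher (*Kcnd2*), 1 lower (*Kcnd3*) and 1 not called, and 2 KChIP members higher (*Kcnip2* and *Kcnip3*) and 2 lower (*Kcnip1* and *Kcnip4*). The falls included 3 of 4 Kv3 members, 4 of 9 two-pore-domain members and the *Kcnj3* and *Kcnj9* pair. Of the 4 Kv7 members 3 were higher.

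*Kcnab1*, a beta subunit that speeds inactivation of Kv1 channels (chr3:64949212-65378225, mm10), stood at 444.3, 447.0, 477.0 and 407.0 CPM in *Ppp1r1b*-high spots of sections 1 to 4. In no other sum did it exceed 144.7 CPM, so the groups did not overlap, and its log2 fold change was 2.46 ± 0.08 (5.49-fold, adjusted p = 2.0e-21). *Kcnd2*, a Kv4 pore subunit of the dendritic A-type current, stood at 147.3, 189.1, 188.1 and 170.4 CPM against at most 88.9 CPM elsewhere, a rise of 1.54 ± 0.09 (adjusted p = 1.7e-15). *Kcnip2*, its KChIP partner, stood at 377.5, 418.0, 392.8 and 434.5 CPM against at most 272.5 CPM elsewhere, a rise of 1.51 ± 0.10 (adjusted p = 6.5e-14). These 3 genes were each above every other sum in all 4 sections. Above every other sum in *Ppp1r1b*-high spots were 9 of the 75 members, where 3.79% of the 12062 genes were.

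*Kcna4*, the A-type pore subunit of the Kv1 family, stood at 45.2, 47.6, 43.0 and 37.9 CPM in *Ppp1r1b*-high spots and at no more than 23.1 CPM elsewhere, a rise of 1.85 ± 0.15 (adjusted p = 7.8e-12). *Kcnj2*, a strong inward rectifier, stood at 19.1, 20.7, 24.1 and 25.1 CPM against 2.65 to 11.5 CPM elsewhere, a rise of 2.00 ± 0.19 (adjusted p = 1.4e-10). Neither gene's groups overlapped. *Kcna5*, a delayed rectifier, rose by 1.53 ± 0.26 (adjusted p = 1.6e-05), but its values of 20.7, 26.2, 24.6 and 7.16 CPM overlapped those of other classes, with section 4 low as it was over the whole section. *Kcnk2*, a leak channel gated by stretch and lipids, stood at 116.7 to 122.9 CPM, above every other sum, and rose by 1.40.

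Among the members lower in *Ppp1r1b*-high spots, *Kcnab3* stood at 8.30, 13.2, 14.7 and 12.5 CPM, below every other sum, with a log2 fold change of -1.90 ± 0.18 (adjusted p = 1.0e-10). Below every other sum in these spots were 2 of the 75 members, where 3.05% of the 12062 genes were. *Kcnc4* had -1.88 ± 0.17 (adjusted p = 6.7e-11). *Kcnk10*, a relative of *Kcnk2*, stood at 0.830, 0.499, 1.89 and 2.15 CPM, from 14 UMIs in all, with -1.83 ± 0.39 (adjusted p = 2.9e-04), a call lost without section 4 at the same size (-1.83, adjusted p = 0.060). *Kcnk2* and *Kcnk10*, which both encode stretch-sensitive leak channels, therefore lay on opposite sides in these spots, and so did the Kv1 beta genes *Kcnab1* and *Kcnab3*.

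**Figure D3:**
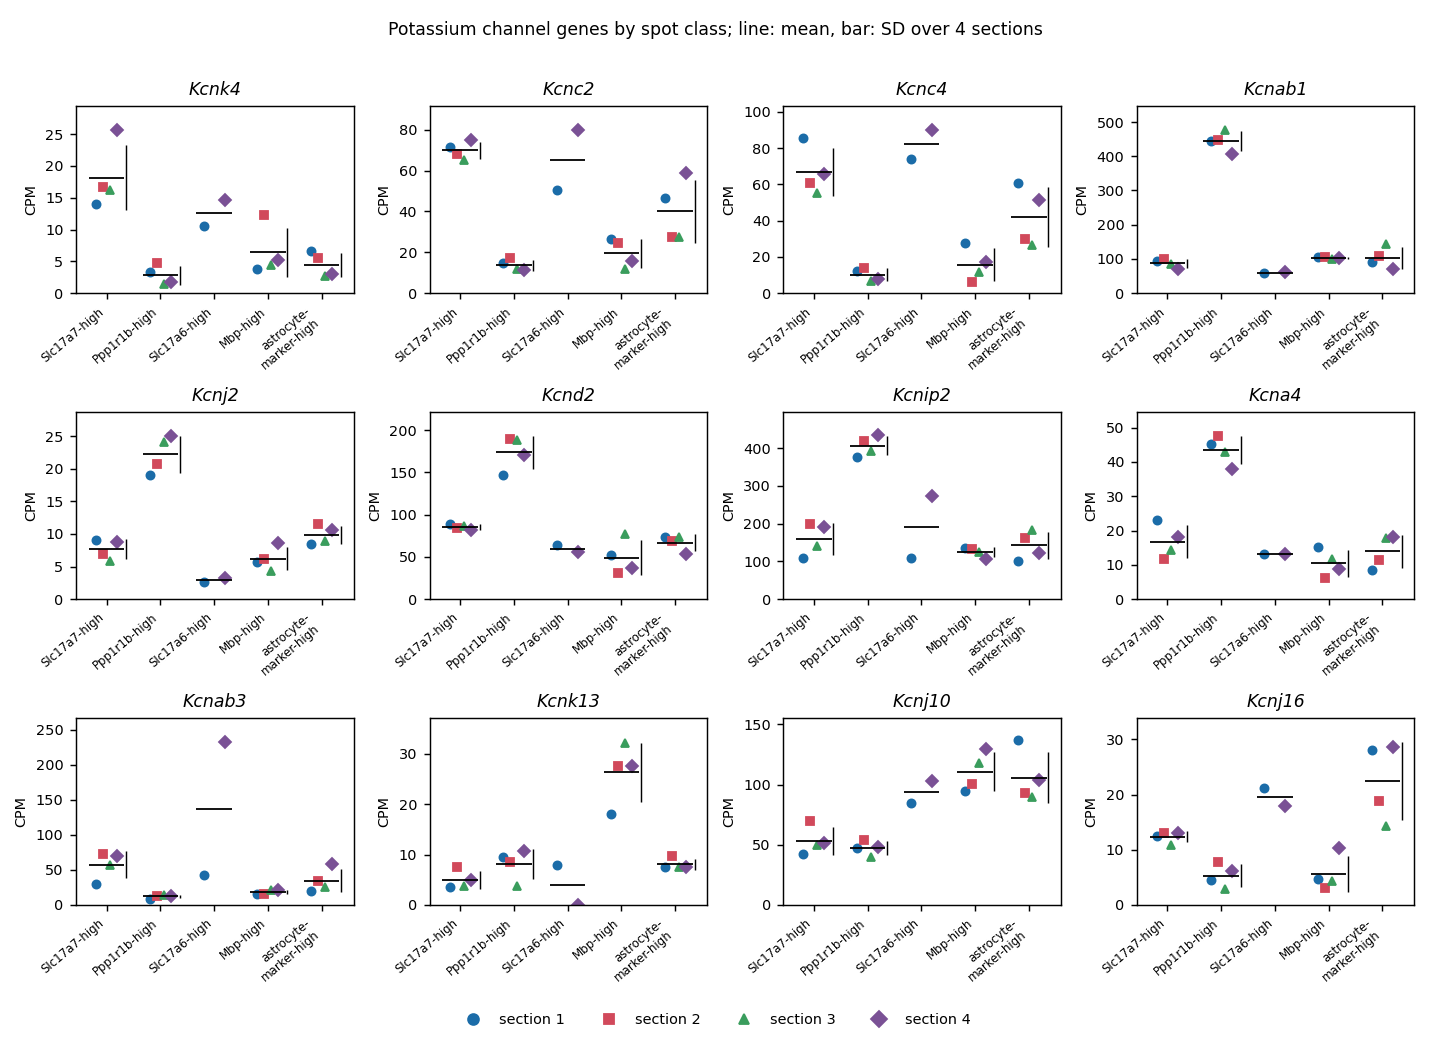
CPM of 12 members by spot class, with 1 point per section, a line at the mean and a bar of 1 SD over 4 sections (no bar for *Slc17a6*-high spots, which come from 2 sections). *Kcnab1*, *Kcnj2*, *Kcnd2*, *Kcnip2* and *Kcna4* are above all other classes in *Ppp1r1b*-high spots, and *Kcnk13* in *Mbp*-high spots.

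Set directly against each other in the same fit, the *Slc17a7*-high and *Ppp1r1b*-high spots differed in 50 of 66 members. Of these 34 were higher in *Slc17a7*-high spots, where 19.4% of all genes were, and 16 in *Ppp1r1b*-high spots, where 17.5% were. The median log2 fold change was 0.43 in members and -0.01 in all genes. The largest differences toward *Slc17a7*-high spots were in *Kcnc4* (2.47 ± 0.16, adjusted p = 2.1e-14), *Kcnk4* (2.36 ± 0.27, adjusted p = 8.8e-09) and *Kcns3*, a silent Kv modifier (2.21 ± 0.38, adjusted p = 1.3e-05). *Kcns3* stood at 4.52, 8.84, 5.42 and 6.24 CPM in *Slc17a7*-high spots and at 1.24, 2.00, 0.473 and 0.716 CPM in *Ppp1r1b*-high spots, without overlap.

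Toward *Ppp1r1b*-high spots the largest differences were in *Kcnab1* (log2 fold change -2.51 ± 0.10, adjusted p = 1.1e-19), *Kcna5* (-1.88 ± 0.27, adjusted p = 5.2e-07) and *Kcne1l* (-1.80 ± 0.33, adjusted p = 4.6e-05). *Kcna5* was at 12.5, 7.18, 4.59 and 0 CPM in *Slc17a7*-high spots, where the 0 of section 4 allows up to 1.87 CPM. Within families the split was sharp for Kv3, with 4 of 4 members higher in *Slc17a7*-high spots, and mixed for Kv4, where *Kcnd2* and *Kcnd3* lay on opposite sides (-1.21 and 1.13). Of the 4 KChIP genes, *Kcnip1* and *Kcnip4* were higher in *Slc17a7*-high spots (1.06 and 1.02) and *Kcnip2* in *Ppp1r1b*-high spots (-1.54). When each section was left out in turn, 44 to 49 of the 50 calls were made again in the same direction.

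**Figure D4:**
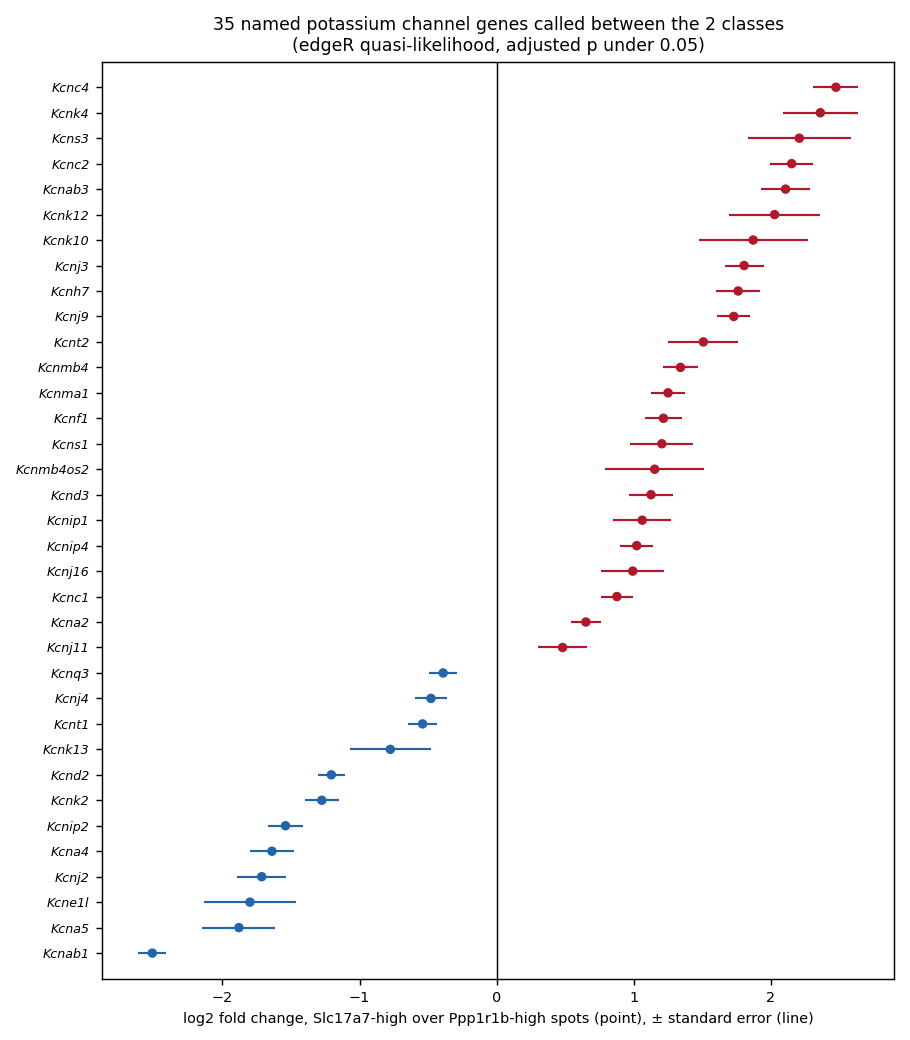
Log2 fold change of *Slc17a7*-high over *Ppp1r1b*-high spots (point) with its standard error (line) for the 35 members called and named in the text, ordered by size. *Kcnc4* is at 2.47 at the top and *Kcnab1* at -2.51 at the bottom, with 23 members drawn on the positive side and 12 on the negative.

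*Slc17a6*-high spots, with 20 and 28 spots in sections 1 and 4, had 14 of 66 members higher, where 3.7% of all genes were, and 1 lower, where 2.84% were. The median log2 fold change was 0.27 in members and -0.02 in all genes. Kv3 members and Kv1 beta members made up 5 of the 14. *Kcnc1*, a Kv3 pore subunit, stood at 169.6 and 114.2 CPM, above every other sum, whose highest was 106.7 CPM, and rose by 1.17. In *Slc17a6*-high spots 2 of the 75 members lay above every other sum, where 3.38% of the 12062 genes did. *Kcnab3* stood at 42.4 CPM in section 1 and 231.7 CPM in section 4, with a log2 fold change of 2.39 ± 0.22 (adjusted p = 1.2e-08), so the section 1 value lay within the cortical range of 30.1 to 72.3 CPM. Without section 4 this became 1.29 (adjusted p = 0.17).

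Section 4 carried most of these calls. *Kcnj9* (66.2 and 128.9 CPM, 1.49 ± 0.19, adjusted p = 4.7e-06), *Kcnh7* (39.7 and 91.4 CPM, 1.41 ± 0.25, adjusted p = 3.6e-04) and *Kcnc4* (74.2 and 89.8 CPM, 1.36 ± 0.23, adjusted p = 2.2e-04) were each higher in section 4 than in section 1. *Kcns1*, a silent modifier, stood at 7.95 and 34.3 CPM (1.48 ± 0.42, adjusted p = 0.025), and *Kcnt2*, a sodium-activated channel, at 13.2 and 34.3 CPM (1.41 ± 0.44, adjusted p = 0.048). The 1 lower member, *Kcnab1*, stood at 58.3 and 60.4 CPM (-1.26 ± 0.21, adjusted p = 1.3e-04), below every other sum. Below every other sum in these spots were 2 of the 75 members, where 2.22% of the 12062 genes were. Without section 4 only 2 members were called higher, and the 5 rises just named all lost their calls (0.09 to 1.25, adjusted p = 0.071 to 0.99). The *Slc17a6*-high spots also held 656 to 3696 CPM of choroid plexus markers, *Ttr* included. By a rule of at least 3 of the 9 markers other than *Ttr*, 2 of these spots in section 1 and 0 in section 4 carried them. Removing those 2 left section 1 under the 20 spots that a class needed, so only section 4 remained. That setting therefore cannot show how far choroid plexus content entered these calls.

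Between *Slc17a7*-high and *Slc17a6*-high spots only 3 of 66 members were called, 2 higher in *Slc17a7*-high spots (0.903% of all genes were) and 1 lower (0.464% were). *Kcnip3* (1.02 ± 0.27) and *Kcnj4* (0.99 ± 0.26) had adjusted p-values of 0.045 each, and DESeq2 called neither at log2 fold changes of 0.97 and 0.92 (adjusted p = 0.084 and 0.090). *Kcnab3* had -1.33 ± 0.22 (adjusted p = 4.5e-04), which without section 4 fell to -0.21 (adjusted p = 0.90). *Ppp1r1b*-high against *Slc17a6*-high spots gave 11 members higher in *Ppp1r1b*-high spots, where 7.85% of all genes were, and 24 lower, where 8.41% were. The largest were *Kcnj2* (3.14 ± 0.53), *Kcnab1* (2.97 ± 0.20) and *Kcna4* (1.97 ± 0.37) toward *Ppp1r1b*-high spots, and *Kcnab3* (-3.43 ± 0.25), *Kcns3* (-2.96 ± 0.70) and *Kcnc4* (-2.59 ± 0.27) away from them. *Kcnj2* in *Slc17a6*-high spots rested on 3 UMIs. *Kcns3* passed the low-count filter only with the *Slc17a6*-high sums, where it was high. Without section 4 the 24 lower members became 8.

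Of the 66 members 27 were lower in *Mbp*-high spots, where 14.2% of all genes were, and 4 higher, where 15.1% were, with a median log2 fold change of -0.58 in members and -0.02 in all genes. All 4 Kv3 members, 3 of 4 Kv7 members and 4 of 9 inward rectifiers were lower, in the class with the lowest pan-neuronal level. *Kcnc1*, at 33.3, 18.3, 26.2 and 32.8 CPM, was below every other sum (-1.31 ± 0.17, adjusted p = 3.0e-07), and *Kcnj9* stood at 11.4, 24.4, 14.6 and 27.6 CPM (-1.45 ± 0.20, adjusted p = 4.1e-07). Below every other sum in these spots were 5 of the 75 members, where 1.96% of the 12062 genes were.

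*Kcnk13*, a leak channel known for microglia (chr12:99963149-100062682, mm10), stood at 18.1, 27.5, 32.1 and 27.6 CPM in *Mbp*-high spots and at 0 to 10.7 CPM elsewhere, without overlap. Its log2 fold change was 2.24 ± 0.32 (adjusted p = 1.2e-06), and 1.93 without the *Slc17a6*-high class, in which it had 3 UMIs. In *Mbp*-high spots only 2 of the 75 members lay above every other sum, where 4.69% of the 12062 genes did. The summed level of 6 microglial markers was 437 to 632 CPM in *Mbp*-high spots, 385 to 540 CPM in astrocyte-marker-high spots and 185 to 330 CPM in *Slc17a7*-high and *Ppp1r1b*-high spots, and their part was not tested. *Kcnk13* in astrocyte-marker-high spots stood at 7.49, 9.69, 7.55 and 7.54 CPM. *Kcna1*, a Kv1 pore subunit that clusters beside the nodes of myelinated axons, stood at 6.67, 6.11, 8.75 and 6.90 CPM against at most 5.62 CPM elsewhere (1.97 ± 0.55, adjusted p = 0.0059), from 19 UMIs in *Mbp*-high spots. It passed the low-count filter only through its *Mbp*-high sums, so its call is no separate support for the rise. *Kcnj10* stood at 94.3, 100.8, 118.1 and 129.4 CPM (0.70 ± 0.14, adjusted p = 1.3e-04), above every *Slc17a7*-high and *Ppp1r1b*-high value. In *Slc17a6*-high spots *Kcnj10* stood at 84.8 and 102.8 CPM in sections 1 and 4, and the latter lay within the *Mbp*-high range.

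*Kcne2* in *Mbp*-high spots stood at 11.4, 0, 0 and 13.8 CPM, from 12, 0, 0 and 8 UMIs, where the 0 of sections 2 and 3 allows up to 9.16 and 4.37 CPM. The fit gave 2.38 ± 0.55 (adjusted p = 0.0011). *Kcne2* passed the low-count filter only with its *Mbp*-high sums, so its call is no separate support for a rise there. Choroid plexus markers with *Ttr* included stood at up to 14754 CPM in *Mbp*-high spots, against 39.7 CPM in the lowest section. The *Kcne2* value rested on sections 1 and 4, whose *Mbp*-high spots included 13 and 21 spots with choroid plexus markers, by the rule without *Ttr*. Once spots carrying choroid plexus markers were removed, its value was 1.58 (adjusted p = 0.35), and without section 4 it was 1.68 (adjusted p = 0.076).

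In astrocyte-marker-high spots 4 of the 66 members were higher, where 10.7% of all genes were, and 6 lower, where 6.69% were, with a median log2 fold change of -0.16 in members and -0.0041 in all genes. Higher were the glial inward rectifier genes *Kcnj10* and *Kcnj16*, whose products assemble together, with *Kcnip1* and *Kcnn2*. *Kcnj16* stood at 28.1, 18.8, 14.4 and 28.7 CPM and rose by 1.25 ± 0.21 (adjusted p = 5.0e-05). These values did not overlap the 2.84 to 13.1 CPM of *Slc17a7*-high, *Ppp1r1b*-high and *Mbp*-high spots. Their range did include the *Slc17a6*-high values of 21.2 and 17.95 CPM in sections 1 and 4. Within each of those sections the astrocyte-marker-high value of *Kcnj16* was the higher. *Kcnj10* stood at 136.7, 92.6, 89.9 and 104.1 CPM (0.53 ± 0.12, adjusted p = 0.0015). That range overlapped the range of *Mbp*-high spots and held the *Slc17a6*-high value of section 4 (102.8 CPM). Without section 1 its rise was 0.30 (adjusted p = 0.11). Against the mean of the other 4 classes, *Kcnj16* was lower in *Mbp*-high spots (-1.09) and *Kcnj10* higher. There *Kcnj16* stood at 4.76, 3.05, 4.37 and 10.4 CPM, from only 5, 1, 3 and 6 UMIs. These values overlapped its *Ppp1r1b*-high values of 4.56, 7.73, 2.84 and 6.08 CPM, so a fall particular to *Mbp*-high spots is not shown.

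*Kcnip1*, a KChIP gene of interneurons, stood at 46.8, 33.3, 30.2 and 40.7 CPM in astrocyte-marker-high spots (0.76 ± 0.19, adjusted p = 0.0032), and *Kcnn2*, a calcium-activated SK channel, at 36.5, 47.2, 54.9 and 54.3 CPM (0.69 ± 0.13, adjusted p = 2.1e-04). *Kcnip1* stood at 60.9 and 35.9 CPM in *Slc17a6*-high spots. Inhibitory neuron markers stood at 1187 to 1346 CPM in astrocyte-marker-high spots, 812 to 1100 CPM in *Slc17a7*-high spots and 794 to 1097 CPM in *Mbp*-high spots. They stood at 1107 to 1361 CPM in *Ppp1r1b*-high spots, 1498 to 1550 CPM in *Slc17a6*-high spots and 1318 to 1480 CPM over all spots. The part of inhibitory neurons in the rises was not tested. Every section's ratio was positive for *Kcnip1* and *Kcnn2*, which the rule for naming members required. *Kcnf1*, a silent modifier, stood at 28.1, 38.8, 32.2 and 28.7 CPM (-0.66 ± 0.17, adjusted p = 0.0062), *Kcnq3*, a Kv7 pore subunit of the M current, at 36.5, 38.8, 39.1 and 48.3 CPM (-0.66 ± 0.13, adjusted p = 2.3e-04) and *Kcnj4*, an inward rectifier, at 45.9, 60.5, 65.2 and 30.2 CPM (-0.64 ± 0.15, adjusted p = 0.0028). All 3 overlapped the *Mbp*-high values. Ependymal, mural and fibroblast markers also had their highest medians over sections in these spots (ranges of 151 to 419, 181 to 496 and 90.5 to 337 CPM), and their part in the rises was not tested. Without the *Slc17a6*-high class 7 members were higher and 10 lower, with no share over all genes taken in that setting.

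*Kcnma1* stood at 77.8 ± 13.4 CPM and *Kcnmb4* at 99.3 ± 10.1 CPM in *Slc17a7*-high spots, and at 27.9 ± 8.80 and 34.6 ± 5.31 CPM in *Ppp1r1b*-high spots (SD, n = 4). In *Mbp*-high spots *Kcnma1* was lower (-0.69), while *Kcnmb4* had -0.17 and was not called. Of the sodium-activated pair, *Kcnt1* was higher in *Ppp1r1b*-high spots (1.00) and *Kcnt2* lower (-1.03). The ATP-sensitive pore gene *Kcnj11* was higher in *Slc17a7*-high spots (0.93), while *Kcnj8*, its vascular relative, was called in no class.

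Genes that work with these channels were tested in the same fit. Of 12 accessory and partner genes tested, 5 were higher and 1 lower in *Slc17a7*-high spots, 4 higher and 4 lower in *Ppp1r1b*-high spots, and 2 higher and 6 lower in *Mbp*-high spots. Over all genes 17.3% were higher and 13.3% lower in the first class, 18.7% and 19.5% in the second and 15.1% and 14.2% in the third, so the 2 of 12 higher in *Mbp*-high spots were near the background. These 2 in *Mbp*-high spots were *Cntn2* (1.68 ± 0.12), which holds Kv1 channels beside the node, and *Lgi3* (1.45 ± 0.10). Of the other partners of Kv1 channels in the list, *Cntnap2* (-0.54 ± 0.16) and *Adam22* (-0.50 ± 0.13) were lower there, and *Kcna2* itself stood at 33.6 to 45.7 CPM, below every other sum. *Dpp10*, a partner of Kv4 channels, was higher in *Slc17a7*-high spots (0.60 ± 0.10) and lower in *Ppp1r1b*-high spots (-0.67 ± 0.11), opposite to *Kcnd2* there. Of 3 HCN channels tested, *Hcn2* was higher in *Mbp*-high spots (0.64 ± 0.13). Of 9 pumps and cotransporters, 2 were higher in *Mbp*-high spots, *Slc12a2* (2.47 ± 0.11) and *Atp1b3* (1.05 ± 0.10), and 2 in astrocyte-marker-high spots, among them the pump subunit *Atp1b2* (0.71 ± 0.08).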

How the data were processed

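Mouse brain sections were profiled by Visium. The authors used Space Ranger 1.3.1, per the header of the deposited counts, and the mm10 build, per the labels. They deposited UMI counts for every gene in every spot without normalization. The annotation release is not given in the sources used here. Gene positions come from RefSeq's GRCm38.p6 table, which listed all 75 members. No region outlines were used here.

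The members, gene lists and tests were chosen with earlier results of these data known. Spots with under 500 UMIs were left out, a class needed at least 3 marker UMIs in a spot and at least 20 spots in a section, and 545, 489, 131, 153 and 435 spots lay within 10% of the thresholds of the *Slc17a7*, *Ppp1r1b*, *Slc17a6*, *Mbp* and astrocyte classes. Spots were not checked for doublets, since each can hold several cells. Counts were summed per section and class and tested in R 4.3.3 by the quasi-likelihood test of edgeR 4.0.16 (normalization by TMM, low counts removed by filterByExpr, section as a block, 10 residual degrees of freedom, Benjamini-Hochberg adjustment over 12299 genes, threshold 0.05). Each class was set against the mean of the other 4, and 3 pairs of classes against each other. Standard errors are the log2 fold change over the square root of F. Calls of each class share their control sums. Background shares leave out the 9 class markers. They were taken for the reported fit only, so counts of members under other settings have no share over all genes beside them.

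Section is a true pairing, as its classes were cut from 1 piece of tissue. Residuals of a section's sums correlated at 0.0542 to 0.335 across genes. No 2 sections agreed within sampling noise (chi-square over its degrees of freedom, 14.5 to 55.4), so each counted once, and they shared 427 to 1989 spot barcodes. Poisson intervals and the limits of 0 counts (3 counts of the total) cover counting error only. On simulated counts for 12299 genes, 200 of them changed by a log2 fold change of 1, the test called 169, 178, 92, 142 and 166 of the changed genes for the *Slc17a7*, *Ppp1r1b*, *Slc17a6*, *Mbp* and astrocyte classes, 5 to 8 unchanged genes and 0 in the wrong direction.

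Named for each class were up to 6 members with the largest rises and up to 3 with the largest falls among those called with 1 sign in every section, up to 3 each way for the pairs, and the most counted member of each family; *Kcnd3*, *Kcnip4*, *Kcnj3*, *Kcnj8*, *Kcnj11*, *Kcnk2*, the members that varied most or least between sections and those that failed the filter were named after their values were seen. Alternatives were DESeq2 1.42.0, scaling by total UMIs, no low-count filter, the top 5% or 20% of spots, thresholds within each section, spots of several classes kept, no block, all other spots of the section as background, *Slc17a7*-high spots with a hippocampal marker UMI left out, and each section left out. Leaving out choroid plexus-marker spots (at least 3 of 9 markers) or the *Slc17a6*-high class was added after the data were seen. Some members are counted in the totals but not reported here by name.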

Additional observations from a re-analysis of the deposited data

Results flagged for a closer look

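Among 79 sets of 4 section values checked for a section far from the other 3, 2 stood out, where about 3.95 would by chance. *Kcnk12* stood at 4.69 CPM in section 1 and at 6.57, 6.27 and 6.28 CPM in sections 2 to 4. *Kcnj4* in astrocyte-marker-high spots had a log2 ratio to the other classes of -1.35 in section 4 and of -0.72, -0.76 and -0.64 in sections 1 to 3.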

How the results depend on the processing

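For the 54 named log2 fold changes, 781 alternative values were compared with those reported, of which 731 kept direction and call, 49 lost the call and 1 reversed. Members without a test in a setting were left out of that setting, so without the *Slc17a6*-high class 34 values were compared. The reversal was *Kcne1l* in *Slc17a7*-high spots, at 0.0014 (adjusted p = 0.92) without section 4, where the single *Slc17a6*-high sum left held no UMI of it. Leaving out section 1 or 4, or the choroid plexus-marker spots, leaves 1 *Slc17a6*-high sum, which is then assumed to vary like the other classes. Total-UMI scaling changed no call of a named member, and without the section as a block (no replicate block) the count of members lower in *Slc17a7*-high than in *Slc17a6*-high spots went from 1 to 0 and no other count moved by over 1.5 times. Members lower in *Slc17a7*-high spots (4) became 13 against all other spots of the section and 9 without the *Slc17a6*-high class. Members higher in *Slc17a6*-high spots (14) became 8 with the top 20% of spots, 9 with thresholds within sections and 6 against all other spots. Members lower there (1) became 2 without the filter, with the top 5% of spots or with spots of several classes kept, 0 with the top 20% and 4 against all other spots. Without the *Slc17a6*-high class, members higher in *Mbp*-high spots (4) became 2, as *Kcna1* and *Kcne2* then failed the low-count filter and were not tested. Astrocyte-marker-high members became 7 higher (from 4) and 10 lower (from 6) in that setting. The latter 6 became 13 without the filter or with thresholds within sections, 17 with the top 20%, 12 with spots of several classes kept and 27 against all other spots. Members higher in *Slc17a7*-high than in *Slc17a6*-high spots (2) became 0 with DESeq2, the top 20%, thresholds within sections or spots of several classes kept. They became 1 without hippocampal marker spots and 5 without the filter, and those lower (1) became 3 without the filter or with the top 5%. From *Ppp1r1b*-high to *Slc17a6*-high spots, higher members (11) became 7 with thresholds within sections and lower members (24) became 15 with the top 20%. The cause of the other changes was not tested. For none of these settings was the share over all genes taken, so whether it moved with the member counts is not shown. Leaving out each section in turn gave 2 to 14 members higher and 1 to 2 lower in *Slc17a6*-high spots, 3 to 11 lower in astrocyte-marker-high spots, 0 to 1 higher and 1 to 2 lower in *Slc17a7*-high than in *Slc17a6*-high spots, and 8 to 24 lower in *Ppp1r1b*-high than in *Slc17a6*-high spots. The lowest values of the first and the last came without section 4.

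Depth limits the *Slc17a6*-high and *Mbp*-high sums most, at 377392 and 612743 and at 327364 to 1049526 UMIs, and members under about 10 CPM there rest on few UMIs.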
